A study of Mus musculus with 12 samples.

Results

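Transcripts of 6 inflammatory cytokine genes were followed in macrophages of the mouse mammary duct across the reproductive cycle: Il1a and Il1b, which encode the IL-1 ligands, Il1rn, which encodes the IL-1 receptor antagonist, Tnf, Il6 and Osm, which encodes oncostatin M. The genes are a list of names drawn up with earlier results of these data known, and are 6 of the 27179 genes in the deposited count table, where each was found by its Entrez identifier. All 6 passed the filter on low counts, as did 12672 genes in all. The mice were C57BL/6 females with no transgene or treatment named in the labels, while the sources used here do not give their ages, the number of animals behind a library or the sort gate. There were 3 libraries, described as biological replicates, from each of 4 stages: virgin mice (Virgin), mice at day 16.5 of pregnancy (Pregnant), lactating mice (Lactating) and mice 1 month after weaning (Post-weaning). Each library was made from 2000 sorted cells.

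IL-1α and IL-1β bind the same receptor and drive NF-κB signalling in the cells that receive them. The receptor antagonist occupies that receptor without signalling. TNF signals through a pair of receptors of its own, whereas IL-6 and oncostatin M share the subunit gp130 and signal through JAK kinases and STAT3. Resting macrophages hold little of these mRNAs, which rise within hours of a stimulus and are then destroyed by decay factors that recognise AU-rich elements. In the mammary gland, oncostatin M and other gp130 ligands are known for their part in the loss of the milk-secreting epithelium after weaning, and duct macrophages lie within the epithelial bilayer.

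On GRCm38.p6, the assembly behind mm10, Il1b (Entrez 16176) lies on chromosome 2 from 129364569 to 129371164, next to Il1a (16175) from 129299609 to 129310186. Il1rn (16181) lies apart on chromosome 2 from 24336860 to 24351491, Il6 (16193) on chromosome 5 from 30013114 to 30019975, Tnf (21926) on chromosome 17 from 35199367 to 35202007, and Osm (18413) on chromosome 11 from 4236785 to 4241026. The promoters of Il1b, Tnf and Il6 are shown because Il1b and Tnf were the pair with the highest Pearson correlation over the 12 libraries and Il6 reached a high level in 2 libraries of 1 stage only. Each runs 5′ to 3′ from 250 bases before to 50 bases after the RefSeq transcription start, on the build GRCm38.p6, at chr2:129371090-129371389 (minus strand) for Il1b, chr17:35201958-35202257 (minus strand) for Tnf and chr5:30012864-30013163 (plus strand) for Il6. Capitals mark TATAAA and the κB motif (GGGA and CC with any 4 bases between them), each searched on both strands.
Il1b: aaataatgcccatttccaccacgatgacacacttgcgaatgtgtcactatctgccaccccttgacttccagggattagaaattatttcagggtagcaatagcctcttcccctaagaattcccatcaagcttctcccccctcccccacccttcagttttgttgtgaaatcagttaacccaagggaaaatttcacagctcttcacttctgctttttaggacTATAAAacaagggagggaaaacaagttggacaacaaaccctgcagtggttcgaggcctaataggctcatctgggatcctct
Tnf: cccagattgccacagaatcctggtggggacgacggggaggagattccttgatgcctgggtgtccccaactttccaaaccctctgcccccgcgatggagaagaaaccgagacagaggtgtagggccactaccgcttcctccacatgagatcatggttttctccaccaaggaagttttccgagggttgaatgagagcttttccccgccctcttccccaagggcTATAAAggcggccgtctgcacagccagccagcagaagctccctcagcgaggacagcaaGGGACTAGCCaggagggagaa
Il6: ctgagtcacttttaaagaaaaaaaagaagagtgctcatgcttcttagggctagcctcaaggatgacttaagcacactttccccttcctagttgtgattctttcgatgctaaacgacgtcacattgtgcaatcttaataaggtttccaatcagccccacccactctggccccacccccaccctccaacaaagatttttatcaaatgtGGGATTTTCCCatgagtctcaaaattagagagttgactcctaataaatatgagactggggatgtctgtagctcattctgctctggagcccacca
Il1b held TATAAA 31 bases before its start and no κB match, Tnf held TATAAA 29 bases before its start and a κB match from position 30 to 39 after it, and Il6 held no TATAAA. The capitals in Il6 cover a pair of overlapping κB matches, 1 on each strand, of which the first begins 44 bases before the start. Il1a held TATAAA 32 bases before its start, and the most upstream of the 3 Il1rn windows held a κB match 54 bases before its start. Over 32851 RefSeq windows of the same length, 20.7% held the κB motif and 13.6% held TATAAA. For AP-1 (TGANTCA), which 7.81% of windows held, there was a match in Il1a, Il6 and the same Il1rn window. A match is a stretch of letters and not a measured site.

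Values are in CPM, counts relative to the TMM-scaled library size, as mean ± SD with n = 3 where a mean is given. Levels of different genes are ranked against each other in TPM, which also corrects for gene length. The ratios of counts given further on are not corrected for length and are compared only between libraries. Library totals ran from 6926273 to 21204704 counts, and the depth is known per library, so counting error is small for all of the cytokines but Il6. The labelled cell type was checked against 12 macrophage markers, all of which were detected at each stage, among them Csf1r and Adgre1 (F4/80). Lactating replicate 3 stood apart. Its milk secretory genes summed to 67125 CPM, against 2284 and 2138 CPM in the other Lactating libraries and 0 to 13499 CPM elsewhere, and its 8 endothelial markers summed to 269 CPM against 0.704 to 62.4 CPM elsewhere. The macrophage markers summed to 9907 CPM in it, against 27484 and 24082 CPM in the other Lactating libraries, with Csf1r at 489 CPM against 1649 and 1669 CPM. Each test of a cytokine is therefore given with all 12 libraries and without that one, the gene lists are given with the calls that were lost without it, and the part that admixed RNA had in its cytokine values was not tested. In bulk libraries such as these, fewer cells of a type and less RNA per cell cannot be told apart.

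Of other cells known for these cytokines, neutrophils had their defining markers at or near 0. Of 12 neutrophil markers, 6 were at 0 in all 12 libraries, S100a9, Ly6g, Cxcr2 and Elane among them, and S100a8 was above 0 only in Pregnant 1, at 0.334 CPM. The summed neutrophil list, 58.4 to 226 CPM, was mostly Csf3r and Ltf, and Ltf is also made by mammary epithelium. Among monocyte markers Chil3 was at 0 throughout and Ly6c2 did not exceed 8.77 CPM, while Ccr2 ran from 5.97 CPM in Lactating 3 to 223 CPM in Virgin 1. The stages differed in several of the marker lists. Monocyte markers summed to 166 to 233 CPM in Virgin, 77.2 to 119 CPM in Pregnant, 7.20 to 112 CPM in Lactating and 178 to 270 CPM in Post-weaning libraries. Dendritic cell markers summed to 167 to 294, 293 to 444, 163 to 408 and 151 to 253 CPM in the same order. Mast cell and basophil markers summed to 14.5 to 28.3, 27.0 to 34.8, 0 to 8.77 and 5.92 to 12.7 CPM. Luminal epithelial markers summed to 122 to 898, 229 to 327, 95.5 to 264 and 217 to 916 CPM in that order, highest in Virgin 3 and Post-weaning 1. Basal epithelial markers summed to 75.7 to 205, 62.3 to 106, 89.2 to 634 and 97.2 to 302 CPM, highest in Lactating 3. The 7 fibroblast markers summed to 31.1 to 376 CPM in Virgin and 39.3 to 160 CPM in Post-weaning libraries, but to 2.34 to 6.58 CPM in Pregnant and 0 to 8.86 CPM in Lactating libraries, with 2 of them, Pdgfra and Pdgfrb, at 0 in all Pregnant libraries. Endothelial markers summed to 9.19 to 51.6 CPM in Virgin and 0.704 to 1.95 CPM in Pregnant libraries, and the 12 T, NK and B cell markers to 21.6 to 38.8 CPM in Virgin and at most 7.92 CPM in Pregnant libraries, in a range of 1.91 to 45.5 CPM over all libraries. In the opposite direction, macrophage markers summed to 15661 to 18478 CPM in Virgin and 38526 to 42770 CPM in Pregnant libraries, and milk secretory genes to 0 to 79.1 and 1617 to 13499 CPM. Yet the median log2 fold change of the 12 macrophage markers from Virgin to Pregnant was 0.04, and only Lyz2 was called higher. Csf1r averaged 1051 ± 18.8 CPM in Virgin and 1270 ± 117 CPM in Pregnant libraries, and Adgre1 744 ± 66.55 and 608 ± 112 CPM. The part of these cells in the stage differences of the cytokines was not tested.

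Il1b was the highest of the cytokines at every stage. In Virgin libraries it stood at 4612 ± 336 TPM and ranked 20th to 25th of all genes, followed by Il1a at 2768 ± 294 TPM. Tnf (563 ± 188 TPM), Il1rn (292 ± 55.1 TPM) and Osm (180 ± 36.3 TPM) came next, and Il6 was lowest at 16.7 ± 3.86 TPM. The same order held in Post-weaning libraries. In Pregnant libraries Il1rn (271 ± 25.2 TPM) had the higher mean than Tnf (207 ± 47.0 TPM), and Il1b stood at ranks 47 to 100. In Lactating libraries Il1b reached ranks 15 to 26 and 6437 ± 2498 TPM, with Il1rn at 1053 ± 787 and Tnf at 884 ± 405 TPM within each other's spread. Il6, at 171 ± 147 TPM, passed Osm (75.8 ± 17.9 TPM) in mean level, by a difference smaller than its own spread.

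**Figure D1:**
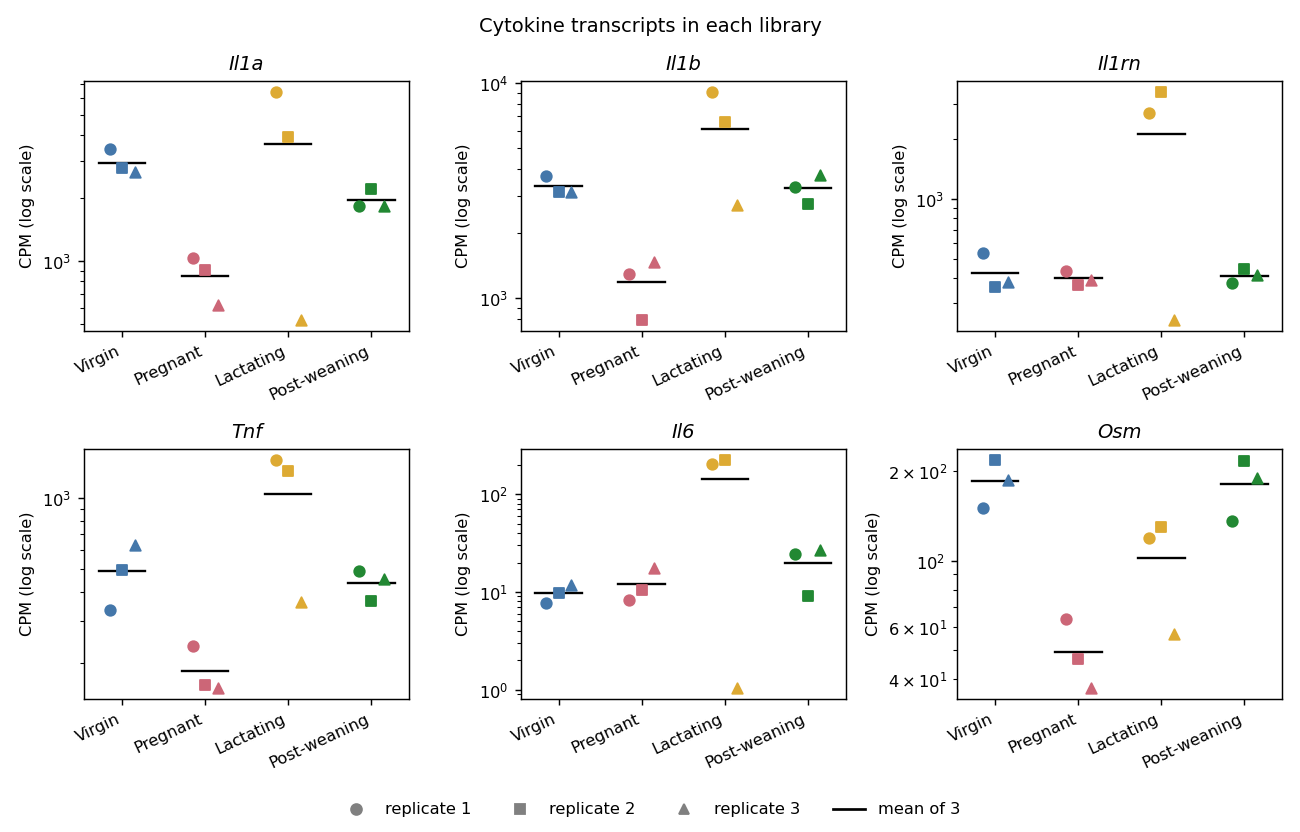
Level of each cytokine transcript in CPM (log scale) in each of the 12 libraries, by stage; symbols mark the replicate and bars the mean of 3. Lactating replicates 1 and 2 are the highest 2 libraries for Il1a, Il1b, Il1rn, Tnf and Il6, while Lactating replicate 3 is the lowest of all 12 for Il1a, Il1rn and Il6.

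Il1b, the secreted IL-1 ligand made as a precursor that caspase-1 cleaves, was measured at 3699, 3116 and 3099 CPM in the Virgin libraries. The Pregnant libraries held 1290, 794 and 1472 CPM. The Lactating libraries held 9048, 6621 and 2722 CPM, and the Post-weaning libraries 3303, 2741 and 3725 CPM. All Pregnant libraries lay below all others, and Lactating 1 and 2 lay above all others, with Virgin, Post-weaning and Lactating 3 between them. Here and for other genes below, the share of all genes in which a stage lay apart from all others was not counted. Shares for pairs of stages are given with the comparisons. The mean order was Lactating (6130 ± 3191 CPM), Virgin (3305 ± 342 CPM), Post-weaning (3256 ± 494 CPM) and Pregnant (1185 ± 351 CPM), and Virgin and Post-weaning overlapped. From Pregnant to Lactating, Il1b rose 5.17-fold, a log2 fold change of 2.37 ± 0.39 (SE) with an edgeR adjusted p of 0.00610. This call held in 12 of 12 fits that each left out 1 library, with adjusted p up to 0.0394.

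Tnf, the founding TNF family ligand, gave 335, 496 and 632 CPM in Virgin, and 235, 160 and 156 CPM in Pregnant libraries. In Lactating libraries it gave 1447, 1309 and 361 CPM, and in Post-weaning libraries 489, 365 and 452 CPM. As for Il1b, every Pregnant library was below every library of the other stages, and Lactating 3 fell among the Virgin and Post-weaning values. The means were 1039 ± 591 CPM in Lactating, 488 ± 149 CPM in Virgin, 436 ± 63.5 CPM in Post-weaning and 184 ± 44.5 CPM in Pregnant libraries, and those of Virgin and Post-weaning did not differ beyond their spread. Tnf rose 5.65-fold from Pregnant to Lactating (log2 fold change 2.50 ± 0.45, edgeR adjusted p = 0.0100). The call was lost without Pregnant replicate 2 (adjusted p = 0.0625) and without Pregnant replicate 3 (adjusted p = 0.0539).

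Osm, which encodes the gp130 ligand oncostatin M, gave 150, 217 and 187 CPM in Virgin and 63.7, 46.9 and 37.5 CPM in Pregnant libraries. It gave 120, 130 and 56.6 CPM in Lactating and 136, 216 and 190 CPM in Post-weaning libraries. Here, unlike for the other 5, no Lactating library exceeded a Virgin or Post-weaning library; 12.8% of all genes were likewise higher in every Post-weaning than in any Lactating library. The means stood in the order Virgin (185 ± 33.8 CPM), Post-weaning (181 ± 40.8 CPM), Lactating (102 ± 39.6 CPM) and Pregnant (49.4 ± 13.3 CPM). Virgin and Post-weaning overlapped, and Lactating overlapped Pregnant through Lactating 3. Osm fell 3.74-fold from Virgin to Pregnant (log2 fold change -1.90 ± 0.34, edgeR adjusted p = 0.0201) and was 3.66-fold higher in Post-weaning than in Pregnant libraries (log2 fold change 1.87 ± 0.34, adjusted p = 0.0311). The fall was called in 7 of 12 fits that each left out 1 library and was lost without Virgin 2 or 3 or any of the Pregnant libraries, with adjusted p up to 0.114. The higher Post-weaning level was called in 5 of 12 such fits and was lost without Virgin 3 or any Pregnant or Post-weaning library, with adjusted p up to 0.194.

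Il1a, whose product is active as the precursor and stays largely with the cell, gave 3419, 2765 and 2667 CPM in Virgin, and 1031, 911 and 614 CPM in Pregnant libraries. It gave 6375, 3894 and 525 CPM in Lactating, and 1822, 2196 and 1837 CPM in Post-weaning libraries. The Virgin, Post-weaning and Pregnant libraries formed 3 separate ranges in that order, and the Lactating libraries spanned all of them. The Lactating mean was 3598 ± 2936 CPM, beside 2950 ± 409 CPM in Virgin, 1951 ± 212 CPM in Post-weaning and 852 ± 215 CPM in Pregnant libraries. No stage comparison of Il1a passed the test with all libraries.

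Il1rn, the antagonist, overlapped between the stages outside lactation, at 532, 362 and 381 CPM in Virgin, 437, 371 and 390 CPM in Pregnant, and 376, 445 and 412 CPM in Post-weaning libraries. Lactating 1 and 2 held 2693 and 3419 CPM, above every other library, and Lactating 3 held 247 CPM, below every other library. The means were 2120 ± 1662 CPM in Lactating, 425 ± 93.1 CPM in Virgin, 411 ± 34.3 CPM in Post-weaning and 399 ± 33.7 CPM in Pregnant libraries, and the last 3 overlapped. With all libraries the log2 fold change from Virgin to Lactating was 2.32 ± 0.64 (edgeR adjusted p = 0.105).

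Il6 was low outside lactation, at 7.80, 9.75 and 11.7 CPM in Virgin, 8.23, 10.6 and 17.4 CPM in Pregnant, and 24.3, 9.08 and 26.6 CPM in Post-weaning libraries. These rested on 68 to 421 counts a library. Lactating 1 and 2 held 202 and 221 CPM, or 1164 and 1212 counts, and Lactating 3 held 12 counts, 1.05 CPM. The means were 141 ± 122 CPM in Lactating, 19.99 ± 9.52 CPM in Post-weaning, 12.1 ± 4.79 CPM in Pregnant and 9.75 ± 1.95 CPM in Virgin libraries, and no neighbouring means differed beyond the spread of the libraries. The log2 fold change from Virgin to Lactating was 3.85 ± 1.18 (edgeR adjusted p = 0.131).

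Across the 4 stages the edgeR test called Il1b (adjusted p = 0.0281), Tnf (0.0381) and Osm (0.0243) different, 3 of the 6 cytokines, where 3.35% of all tested genes were called. Il1rn (adjusted p = 0.0622), Il6 (0.121) and Il1a (0.249) were not called. These 3 calls lay near the threshold. Il1b and Tnf were lost in 11 of 12 fits without 1 library, the exception being the fit without Lactating 3, and Osm was lost in 7. Their adjusted p rose to at most 0.110, 0.143 and 0.110. Those 11 fits also called fewer genes in all, 171 to 384 against 424 with all libraries. Without Lactating 3, all 6 were called, where 5.76% of 13426 tested genes were.

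From Virgin to Pregnant, Osm fell, and Il1a, Il1b and Tnf had lower values that did not pass the test with all libraries. This was 1 of 6 cytokines, where 0.876% of all genes were called lower. The Il1a (log2 fold change -1.79 ± 0.61, edgeR adjusted p = 0.249), Il1b (-1.48 ± 0.38, adjusted p = 0.102) and Tnf (-1.41 ± 0.43, adjusted p = 0.194) values did not pass. In each of these 4 every Pregnant library lay below every Virgin library, as in 10.7% of all tested genes. Il1rn differed by a log2 fold change of -0.09 ± 0.61 and Il6 by 0.31 ± 1.07. Without Lactating 3, which enters this comparison through the shared estimate of spread, Il1a (adjusted p = 0.00137), Il1b (0.00443), Tnf (0.00741) and Osm (0.00156) were all called, where 3.26% of genes were, and their fold changes moved by under 0.01 on the log2 scale.

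From Pregnant to Lactating all 6 cytokines had positive log2 fold changes, and Il1b and Tnf rose, 2 of 6 where 2.65% of all genes were called higher. The pair were also the members whose Lactating libraries all lay above all Pregnant libraries, as in 9.5% of tested genes. Il1a (2.08 ± 0.62, edgeR adjusted p = 0.0913), Il1rn (2.41 ± 0.65, adjusted p = 0.0647), Il6 (3.54 ± 1.17, adjusted p = 0.129) and Osm (1.05 ± 0.33, adjusted p = 0.116) did not pass. Without Lactating 3 all 6 were called, where 5.13% of genes were: Il1rn rose 7.38-fold (adjusted p = 1.20e-05), Tnf 7.24-fold (9.68e-05), Il1b 6.37-fold (0.000101), Il1a 5.84-fold (0.000114), Il6 16.7-fold (0.000367) and Osm 2.44-fold (0.0163). A fit to the 6 Pregnant and Lactating libraries alone called none of the 6.

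Lactating and Virgin libraries were compared directly because both stages lie at high levels of IL-1. No cytokine passed with all libraries, where 1.94% of genes were called, although 5 of 6 had an unadjusted p under 0.05, Il1a being the exception, as had 2129 of 12672 genes. DESeq2 called Il1rn and Il6 among 1161 genes. Without Lactating 3, Il1rn was 6.95-fold higher in Lactating libraries (edgeR adjusted p = 3.70e-05), Il6 20.9-fold (0.000769), Tnf 2.74-fold (0.0119) and Il1b 2.30-fold (0.0252), where 3.1% of genes were called. Il1a (log2 fold change 0.75 ± 0.24, adjusted p = 0.130) and Osm (-0.61 ± 0.28, adjusted p = 0.286) did not pass there either. Every Lactating library was below every Virgin library in Osm, as in 9.34% of all genes, with a log2 fold change of -0.86 ± 0.33 (adjusted p = 0.225) over all libraries.

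After weaning, the libraries of 5 of the 6 cytokines overlapped those of virgin mice, Il1a being the exception. From Lactating to Post-weaning no cytokine passed with all libraries, where 0.923% of genes were called. Il1rn had a log2 fold change of -2.37 ± 0.65 (edgeR adjusted p = 0.120) and Il6 one of -2.82 ± 1.13 (adjusted p = 0.271). Without Lactating 3, where 1.8% of genes were called, Il1rn fell 7.11-fold (adjusted p = 0.000132), Il6 10.1-fold (0.00475), Tnf 3.03-fold (0.0117), Il1a 2.53-fold (0.0174) and Il1b 2.30-fold (0.0314), while Osm (0.60 ± 0.27, adjusted p = 0.325) was not called. From Pregnant to Post-weaning Osm was called higher, 1 of 6 where 0.576% of genes were, and Il1a, Il1b and Tnf joined it without Lactating 3, where 2.29% were (adjusted p = 0.0147, 0.00676 and 0.0184). In all 4 every Post-weaning library was above every Pregnant library, as in 14% of all genes.

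Between Post-weaning and Virgin libraries the edgeR test called 0 of 12672 genes and none of the 6 cytokines, whose adjusted p were all 1 and of which none had an unadjusted p under 0.05, as 765 genes did. DESeq2 called 125 genes and limma-voom 14, no cytokine among them, and edgeR without Lactating 3 called 0.0745% of genes, again without a cytokine. Osm differed by a log2 fold change of -0.03 ± 0.33, Il1b by -0.02 ± 0.37, Il1rn by -0.05 ± 0.61 and Tnf by -0.16 ± 0.42. Such errors leave room for differences in either direction. Il1a, at -0.60 ± 0.59, was lower in each Post-weaning library than in any Virgin library, as were 6.55% of genes, and Il6 stood at 1.03 ± 1.08.

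**Figure D2:**
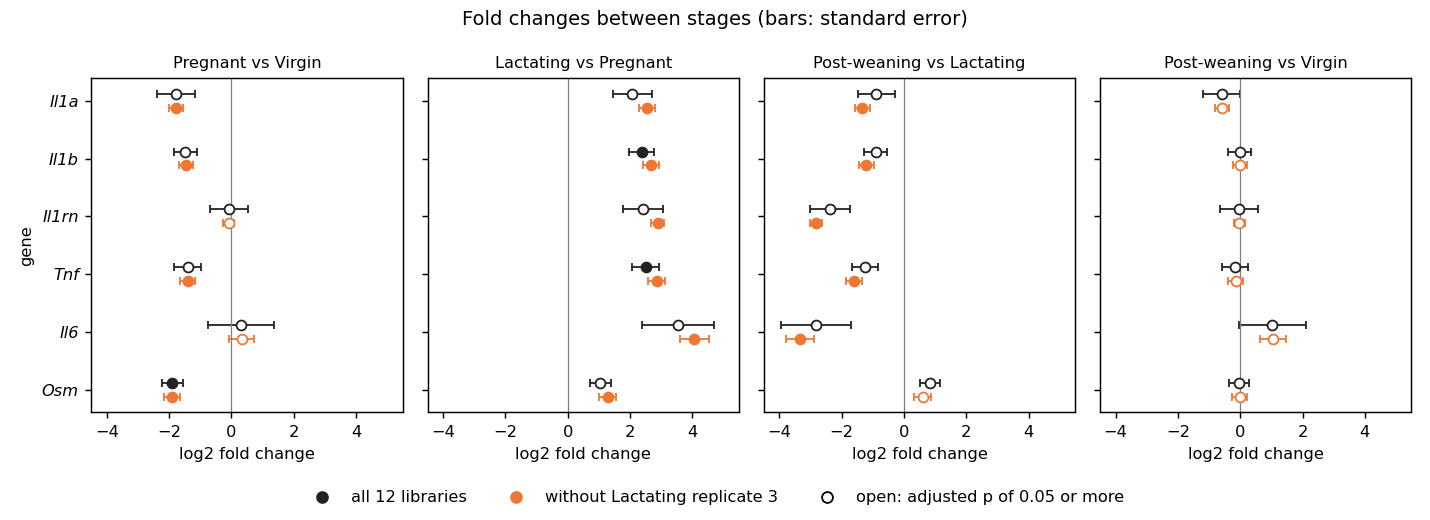
Log2 fold change ± SE of each cytokine in 4 stage comparisons, with all 12 libraries (black) and without Lactating replicate 3 (orange); filled points have an edgeR adjusted p under 0.05. Fold changes moved little on leaving that library out of comparisons it is not part of, but standard errors shrank, and between Post-weaning and Virgin no point is filled.

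Since Lactating 3 held few macrophage transcripts, the cytokines were also set against Csf1r counts of the same library, and then against Adgre1 counts, ratios chosen after the values were seen and given as a description. Per 100 Csf1r counts, Il1b stood at 549, 397 and 557 in the Lactating libraries, beside 290 to 358 in Virgin, 61.6 to 128 in Pregnant and 241 to 367 in Post-weaning libraries. On this scale Lactating 3 was the highest of all 12 libraries. Tnf stood at 87.8, 78.4 and 73.9 in Lactating libraries, above all others: Virgin libraries held 32.4 to 59.1, Pregnant 12.4 to 17.1 and Post-weaning 32.1 to 54.3. For Osm the Lactating ratios were 7.26, 7.76 and 11.6, between the Pregnant range of 3.27 to 4.63 and the lowest Virgin ratio of 14.5. Per 100 Adgre1 counts the Lactating libraries again lay above all others for Il1b (735 to 1036, against at most 485) and Tnf (138 to 147, against at most 90.5). For Osm they held 12.2 to 21.6 and overlapped both Pregnant (5.59 to 13.3) and Virgin libraries (18.3 to 30.5), so that its separation was seen per Csf1r but not per Adgre1.

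For the other cytokines Lactating 3 lay apart from Lactating 1 and 2. Il1a stood at 387, 233 and 107 per 100 Csf1r counts in Lactating libraries, against 249 to 331 in Virgin libraries. Il1rn stood at 163, 205 and 50.5, so that Lactating 3 was within the Virgin range of 34.4 to 51.5. Il6 stood at 12.2, 13.3 and 0.215, so that Lactating 3 remained below the lowest of all other libraries, 0.597 in Pregnant 1. Per 100 Adgre1 counts Lactating 3 held 199.9 of Il1a, below the Virgin range of 382 to 417, and 0.401 of Il6, below the lowest other value of 0.951. For Il1rn it held 94.1, above the Virgin range of 50.7 to 64.8.

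The antagonist was next set against its ligand, in counts not corrected for gene length. The mean Virgin ratio was 12.8 per 100 in counts and 6.29 per 100 with the correction. Per 100 Il1b counts, Il1rn stood at 14.4, 11.6 and 12.3 in Virgin, 33.8, 46.8 and 26.5 in Pregnant, 29.8, 51.6 and 9.08 in Lactating, and 11.4, 16.2 and 11.1 in Post-weaning libraries. The ratio was higher in each Pregnant library than in any Virgin or Post-weaning library, with Il1b lower and Il1rn overlapping. In Lactating 1 and 2 it was as high with both transcripts at their peak. Il1a ran from 86.1 to 92.4 per 100 Il1b counts in Virgin libraries but from 19.3 to 115 over the others.

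**Figure D3:**
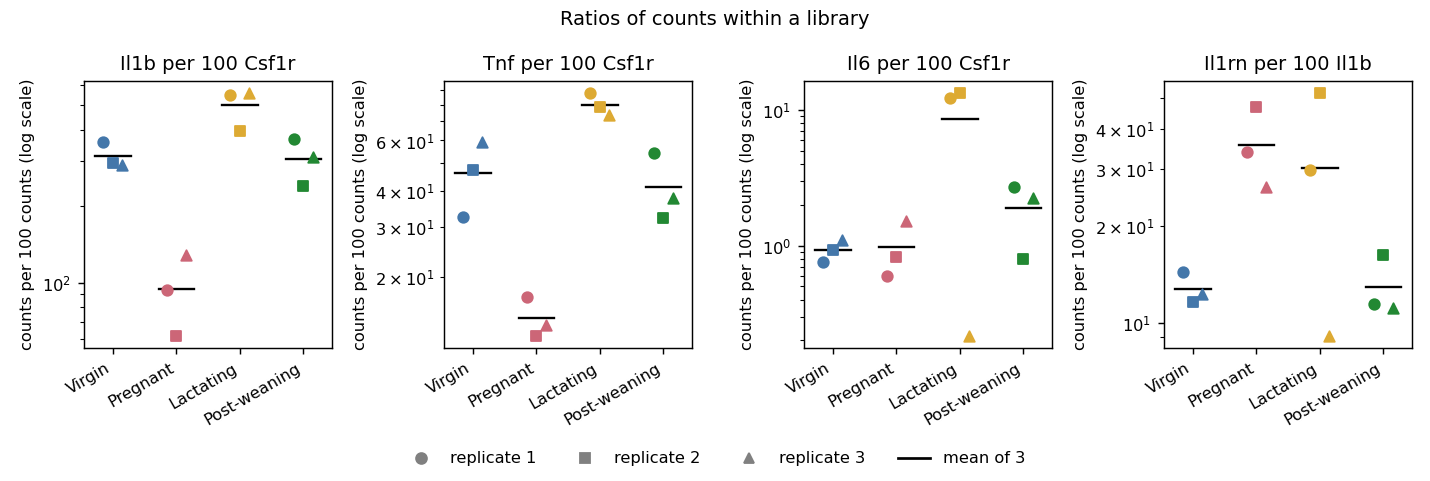
Counts of Il1b, Tnf and Il6 per 100 Csf1r counts and of Il1rn per 100 Il1b counts (log scale) in each library, by stage; symbols mark the replicate and bars the mean of 3. Lactating replicate 3 joins the other Lactating libraries for Il1b and Tnf per Csf1r, but lies at 0.215 for Il6 and 9.08 for Il1rn per Il1b.

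Among the cytokines themselves, Il1b and Tnf had the highest Pearson correlation over the 12 libraries (r = 0.928 on log2 CPM), and Il1rn and Osm the lowest (r = 0.164). By Spearman's rho Il1a and Il1b came first (0.804, against 0.783 for Il1b and Tnf), as they did by r without the 2 libraries farthest from the median (0.933 against 0.887). Il1rn and Il6 reached r = 0.885, which fell to 0.576 without the 2 libraries farthest from the median of Il1rn. Libraries of a stage are not independent points here, so these are descriptions. Of 7165 genes with a mean log2 CPM of at least 3, those most like Il1b were Cd83 (r = 0.976), Cxcl2 (0.972), a neutrophil-attracting chemokine, and Dusp2 (0.971), a MAP kinase phosphatase. Those most like Tnf were Mmp12 (0.982), the macrophage elastase, Dusp2 (0.972) and Sdc4 (0.968). Osm was most like Junb (0.969), an AP-1 subunit, Dusp1 (0.958) and Cyp27a1 (0.945). Il1a was most like Rap1b (0.967), Smim3 (0.947) and Gm7964 (0.941). The likeness of Il1rn to Ccr1 (0.968), Gch1 (0.963) and H2-Eb1 (0.923) rested on Lactating 1 and 2, without which r was 0.489, 0.498 and 0.631. Il6 was most like Scimp (0.951), H2-Eb1 (0.944) and Exosc3 (0.936).

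The receptors for these ligands were unevenly present. Il1r2, the decoy receptor that binds IL-1 without signalling, gave 147 to 328 CPM in Virgin and 177 to 241 CPM in Pregnant libraries. It gave 1284, 1376 and 409 CPM in Lactating libraries, all above every library of the other stages, as Post-weaning reached 332 CPM. Il1r2 rose from Pregnant to Lactating (log2 fold change 2.24 ± 0.47, edgeR adjusted p = 0.0211) and was higher than in Virgin (2.28 ± 0.47, adjusted p = 0.0335), calls that held in 7 and 3 of 12 fits without 1 library. The signalling receptor Il1r1 was at 0 in all 3 Lactating libraries and at most 8.56 CPM elsewhere, and its partner Il1rap averaged 13.6 to 27.7 CPM by stage. Irak2, an adaptor kinase of the IL-1 receptor (89.4 ± 18.6 to 245 ± 65.4 CPM, adjusted p = 0.0105), and Tollip (55.2 ± 9.82 to 161 ± 72.7 CPM, adjusted p = 0.0331) also rose from Pregnant to Lactating. They and Il1r2 were the 3 of 17 tested IL-1 receptor and signalling genes called higher there, with 0 lower and a median log2 fold change of 0.30, beside -0.14 over all genes. Without Pregnant replicate 2 the count was 0. Without Lactating 3 the calls of Il1r2 (adjusted p = 0.00169 and 0.00334), Irak2 (0.0204) and Tollip (0.00670) all stood.

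Tnfrsf1b, the TNF receptor found mainly on leukocytes, was higher in Lactating (295 ± 56.5 CPM) than in Virgin libraries (150 ± 20.3 CPM), with an edgeR adjusted p of 0.0471, which only 2 of 12 fits without 1 library kept under the threshold. Tnfrsf1a, the broadly expressed receptor, averaged from 77.8 ± 2.09 CPM in Pregnant to 125 ± 14.5 CPM in Post-weaning libraries and was called in no comparison. Birc3, an inhibitor of apoptosis that binds TRAF2 and is an NF-κB target, fell from 177 ± 11.6 CPM in Virgin to 75.5 ± 19.7 CPM in Pregnant (adjusted p = 0.0201). It rose to 199 ± 21.9 CPM in Lactating libraries (adjusted p = 0.00491, kept in 12 of 12 fits without 1 library). Cflar (adjusted p = 0.0157), which restrains caspase-8, rose with it, making 2 of 19 tested TNF receptor and signalling genes higher from Pregnant to Lactating, none lower, with a median of 0.58, beside 2.65% of all genes called higher and a median of -0.14. That count was 1 without Pregnant replicate 1 and 3 without Lactating 3. Ripk3, a kinase of necroptosis, was higher in Lactating (170 ± 51.9 CPM) than in Virgin libraries (62.7 ± 15.99 CPM, adjusted p = 0.0352), in 1 of 12 fits without 1 library. Without Lactating 3, Tnfrsf1b (adjusted p = 0.0254), Birc3 (0.00851 and 0.00791), Cflar (0.00915) and Ripk3 (0.00856) were called as well.

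Receptor chains for IL-6 and oncostatin M were low. Il6st, which encodes gp130, averaged from 21.0 ± 8.59 to 30.1 ± 4.17 CPM by stage, and Il6ra from 31.6 ± 12.02 to 45.0 ± 30.03 CPM, and neither was called in any comparison. Osmr was at 0 in all Pregnant libraries, at 39.5 CPM in Lactating 3 and at or below 12.5 CPM elsewhere. Downstream, Socs3, the STAT3-induced inhibitor of gp130 signalling, rose from 108 ± 34.6 CPM in Pregnant to 380 ± 98.9 CPM in Lactating (edgeR adjusted p = 0.00445). Cebpb, a transcription factor that binds cytokine promoters, was at 1038 ± 268 CPM in Virgin, 482 ± 118 CPM in Pregnant, 1577 ± 167 CPM in Lactating and 1370 ± 51.0 CPM in Post-weaning libraries. It fell in Pregnant (adjusted p = 0.0471, kept in 2 of 12 fits without 1 library) and rose in Lactating (0.00260) and Post-weaning relative to Pregnant (0.0184), and the second of these calls was kept in 12 of 12 fits without 1 library, as was that of Socs3. With the kinases Jak2 (adjusted p = 0.0126) and Pim1 (0.0206), 4 of 18 tested genes of the list rose from Pregnant to Lactating and none fell, with a median of 0.61, where 2.65% of all genes were called higher and their median was -0.14. The count was 2 without Pregnant replicate 1 and 5 without Virgin replicate 1. Without Lactating 3 it was 4, with Socs3 (adjusted p = 0.000812), Cebpb (0.000930), Pim1 (0.00278) and Jak2 (0.0198) called, and Cebpb also stayed lower in Pregnant than in Virgin (0.0136) and Post-weaning libraries (0.00335).

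Of the machinery that releases the cytokines, Nlrp3, the inflammasome sensor, was called at both steps. It fell from 202 ± 50.2 CPM in Virgin to 64.1 ± 23.2 CPM in Pregnant (edgeR adjusted p = 0.0318) and rose to 195 ± 56.2 CPM in Lactating libraries (adjusted p = 0.0168). The fall was kept in 4 of 12 fits without 1 library (adjusted p up to 0.139) and the rise in 8 of 12 (up to 0.0824), and both were called without Lactating 3 (0.00743 and 0.00563). Rhbdf2, which encodes the iRhom2 partner of the TNF sheddase, was at 58.5 ± 23.8 CPM in Virgin, 43.5 ± 3.33 CPM in Pregnant, 198 ± 37.8 CPM in Lactating and 66.8 ± 3.94 CPM in Post-weaning libraries. It rose from Pregnant to Lactating (adjusted p = 0.00284), exceeded Virgin (0.0168) and fell after weaning (0.0387), and these calls were kept in 12, 12 and 4 of 12 fits without 1 library, the fit without Lactating 3 among them each time (0.00136, 0.00865 and 0.0212). The sheddase itself, Adam17 (275 ± 49.4 to 373 ± 56.1 CPM), and Casp1 (87.0 ± 22.1 to 121 ± 40.7 CPM) were called in no comparison. Of the 18 genes of this list, 1 fell from Virgin to Pregnant (median -0.67, beside 0.876% of all genes called lower and a median of 0.03). Leaving out Virgin replicate 2 gave 0 and leaving out Lactating 3 gave 3. The next step, to Lactating, had 2 that rose (median 0.29, beside 2.65% and -0.14 over all genes), a count of 1 without Pregnant replicate 1 and 2 without Lactating 3.

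NF-κB genes, which include targets and inhibitors of the pathway that IL-1 and TNF engage, were lowest in Pregnant libraries. Summed, the 14 subunits and regulators held 2353 to 3017 CPM there and 5330 to 7353 CPM elsewhere. Of these 14 genes, 4 fell from Virgin to Pregnant and 0 rose, with a median log2 fold change of -1.01, beside 0.876% of all genes called lower and a median of 0.03 over all genes. The 4 were Nfkbib (edgeR adjusted p = 0.00702), Nfkbiz (0.00761), Nfkbia (0.0169) and Nfkbid (0.0374), kept in 12, 12, 7 and 3 of 12 fits without 1 library, and all called without Lactating 3 (0.00147, 0.000392, 0.00195 and 0.00633). From Pregnant to Lactating 11 of 14 rose and 0 fell, with a median of 1.37, beside 2.65% and -0.14 over all genes. Nfkb1, the p50 precursor, gave 31.5, 32.9 and 34.5 CPM in Pregnant and 211, 292 and 157 CPM in Lactating libraries (log2 fold change 2.74 ± 0.34, adjusted p = 0.00107). It was also the 1 gene of the list called higher in Lactating than in Virgin libraries (adjusted p = 0.0463) and lower after weaning (0.0352), calls kept in 1 and 3 of 12 fits without 1 library. Rela rose from 69.5 ± 4.76 to 178 ± 38.6 CPM (adjusted p = 0.00578) and Nfkbib from 65.5 ± 9.81 to 335 ± 48.4 CPM (0.000443). The count of 11 dropped to 5 without Pregnant replicate 1. Without Lactating 3 it was 11, of which 10 were the same genes, as Nfkbie was lost (adjusted p = 0.0687), while the count of 4 ranged from 2 (without Virgin replicate 2) to 8 (without Lactating 3).

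**Figure D4:**
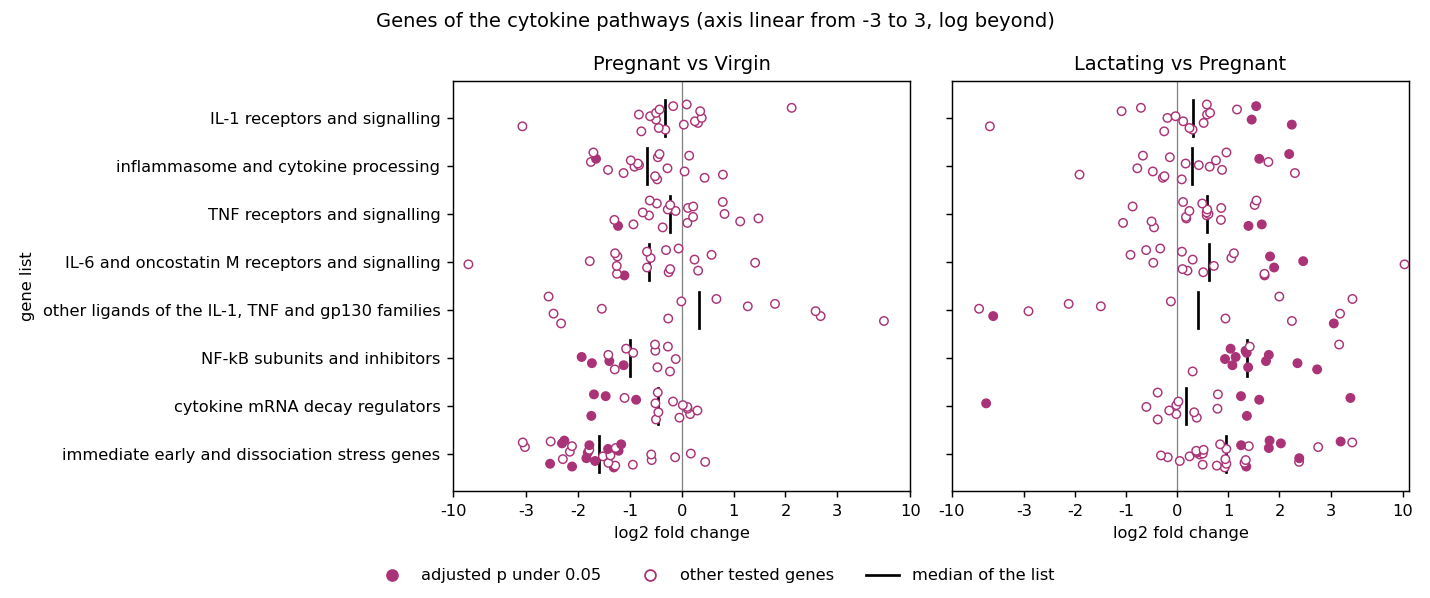
Log2 fold change of each tested gene of 8 lists from Virgin to Pregnant (left) and from Pregnant to Lactating (right); the axis is linear from -3 to 3 and logarithmic beyond, filled points have an edgeR adjusted p under 0.05, and black lines are list medians. NF-κB genes lie around a median of -1.01 on the left and 1.37 on the right.

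Several regulators of cytokine mRNA stability had their lowest level in Pregnant libraries. Zfp36, tristetraprolin, which recruits decay factors to AU-rich elements, gave 1494 ± 349 CPM in Virgin, 540 ± 75.4 CPM in Pregnant, 1282 ± 239 CPM in Lactating and 1356 ± 17.8 CPM in Post-weaning libraries. Its fall in Pregnant (edgeR adjusted p = 0.0102), its rise in Lactating (0.0100) and its higher Post-weaning level (0.0231) were all called. Zc3h12a, the endonuclease regnase-1, which cleaves Il6 mRNA among others, had called values in the same 3 comparisons (adjusted p = 0.0374, 0.000717 and 0.0184). So had Dusp1 (adjusted p = 0.0244, 0.0370 and 0.0300), a phosphatase that limits p38, whose level bears on mRNA stability. Zfp36l1 fell with them from Virgin to Pregnant (adjusted p = 0.00761), so that 4 of 16 genes fell there and none rose, with a median of -0.46. From Pregnant to Lactating 4 rose, Zc3h12c (adjusted p = 0.0461) being the fourth, and Tia1 fell (adjusted p = 0.0148), to 0.298 ± 0.277 CPM from 13.9 ± 1.32 CPM, with a list median of 0.18. Over all genes, 0.876% were called lower at the first step and 2.65% higher at the second. Without Pregnant replicate 2, the counts of 4 were 0 and 1, and without Lactating 3 they were 4 and 5. The fall was kept in 11 of 12 fits without 1 library for Zfp36l1, 10 for Zfp36, 6 for Dusp1 and 1 for Zc3h12a. From Virgin to Lactating, Zfp36l2 (adjusted p = 0.0389) and Tia1 (0.0187) were called lower. Both were called higher from Lactating to Post-weaning (0.0196 and 0.0346). No other gene of the list was called in these comparisons, where 1.94% and 0.923% of all genes were called in either direction. The lower values were kept in 1 and 11 of 12 fits without 1 library, and the higher ones in 10 and 4. All stood without Lactating 3.

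Immediate early genes, which respond to stimuli in tissue and also to enzymatic dissociation, were lowest in Pregnant libraries as well, as were the fibroblast, endothelial and monocyte markers relative to Virgin and Post-weaning libraries. The 30 genes of this list summed to 12228 to 18021 CPM in Virgin, 4966 to 5826 CPM in Pregnant, 9375 to 11502 CPM in Lactating and 13069 to 15478 CPM in Post-weaning libraries. From Virgin to Pregnant 12 fell and 0 rose (median -1.60), and from Pregnant to Post-weaning 8 rose and 0 fell (median 1.57), as Osm fell and rose. Between Pregnant and Lactating 7 rose and 0 fell (median 0.95). Over all genes, 0.876%, 0.576% and 2.65% were called in those directions. Fibroblast markers summed to 31.1 to 376 CPM in Virgin, 2.34 to 6.58 CPM in Pregnant, 0 to 8.86 CPM in Lactating and 39.3 to 160 CPM in Post-weaning libraries, and their part in these counts was not tested. Fos was at 1695 ± 304 CPM in Virgin and 1777 ± 315 CPM in Post-weaning libraries but at 532 ± 87.3 CPM in Pregnant and 550 ± 63.7 CPM in Lactating libraries, a drop from Virgin to Lactating with an edgeR adjusted p of 0.00410. Egr1 was at 1524 ± 473 CPM in Virgin, 1172 ± 122 CPM in Post-weaning, 510 ± 211 CPM in Lactating and 262 ± 48.6 CPM in Pregnant libraries, with an adjusted p of 0.00702 for Virgin against Pregnant. Without Lactating 3 these calls of Fos (0.00303) and Egr1 (0.00125) stood. The genes of this list did not share 1 course in lactation. Fos was low in Lactating libraries, while 7 genes were called higher there than in Pregnant libraries and 0 lower. Gadd45b, 1 of the 7, was at 665 ± 154 CPM in Lactating, 127 ± 23.8 CPM in Pregnant and 455 ± 82.6 CPM in Virgin libraries. Whether cell handling had a part in the cytokine levels was not tested. The count of 12 ranged from 7 (without Pregnant replicate 1) to 16 (without Lactating 3), and the count of 8 from 0 (without Pregnant replicate 2) to 14 (without Lactating 3). The count of 7 ranged from 5 (without Pregnant replicate 1) to 9 (without Lactating 3), where Jund was lost (adjusted p = 0.0750).

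Over all the lists there were 90 called values of 47 genes, of which 26 were kept in every fit without 1 library and 88 in the fit without Lactating 3, the exceptions being Nfkbie and Jund from Pregnant to Lactating. Leaving out Pregnant replicate 2 lost the most, 58 of 90, and Virgin replicate 1 lost 15. Between Post-weaning and Virgin libraries no gene of any list was called.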

How the data were processed

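RNA from 12 sorted-cell samples was made into cDNA with the SMART-Seq v4 kit and sequenced in 1 run, per the labels' protocols; the kit reads whole transcripts and adds no molecular identifiers. The deposited values are raw counts of reads for each gene, made by the authors with featureCounts on mm10, per the submitters' processing notes. The sources used here give neither an aligner, nor versions, nor the strand setting, so reads of overlapping genes cannot be told apart. The series table matched the tables of the single samples in every cell, and no 2 libraries of a stage were identical. RefSeq names and coordinates (GRCm38.p6) matched 25275 of 27179 identifiers (93%), and unmatched rows held at most 0.825% of a library's counts.

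Samples were grouped by the stage in the labels. Genes were filtered with filterByExpr, scaled by TMM, and fitted with edgeR 4.0.16 (R 4.3.3) by robust quasi-likelihood over all 12 libraries with 1 mean per stage. P-values were Benjamini-Hochberg adjusted over 12672 genes, and those under 0.05 were called; adjusted p-values in the text are from edgeR unless another tool is named. SE was the log2 fold change over the square root of F. Comparisons share libraries and are not independent. TPM came from the counts and deposited gene lengths. Likeness used log2 CPM with a prior count of 2. Alternatives were DESeq2 1.42.0, limma-voom (limma 3.58.1) with and without quality weights, other scalings and filters, leaving out each library, a replicate block, and fits restricted to the 6 libraries of a comparison. The fitting code was tested on simulated data for Pregnant against Virgin. It recovered 3 of 61 changes of 2-fold, 14 of 64 of 4-fold and 28 of 66 of 8-fold, with 0 false among 45 calls. A gene that was not called may therefore still differ.

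The cytokines and gene lists were chosen with earlier results of these data known. Named genes were the 6 cytokines, fixed receptors, processing and target genes, and the 3 genes most like each cytokine. Called genes among the 3 with the smallest adjusted p of a list and comparison were also named, but not all of them. Of the immediate early genes, Btg2, Klf6 and Ppp1r15a had that rank from Virgin to Pregnant and were left out. Nfkbie and Jund were named as calls lost without Lactating 3. Other genes named beside a count of 5 or fewer were picked after their values were seen.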

Additional observations from a re-analysis of the deposited data

How the results depend on the processing

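Between 0 and 6 of the 6 cytokines were called, depending on the fit. For any stage difference, 3 were called by edgeR, 6 by DESeq2, 5 by voom with quality weights and 1 (Osm) with the replicate block, over 424, 1455, 905 and 223 genes in all. For Pregnant against Virgin, edgeR called 1, DESeq2 4, voom 2, quality weights 4 and the fit to 6 libraries 3. In the same order, these fits called 167, 659, 311, 480 and 230 genes in all. For Lactating against Virgin, edgeR called 0 and DESeq2 and quality weights 2 each, over 246, 1161 and 251 genes in all. Totals over all genes are not given for the comparisons that follow. The fits differ in how many genes they call, so these counts do not show a change particular to the cytokines. For Lactating against Pregnant, edgeR called 2, DESeq2 6, quality weights 6 and the fit to 6 libraries 0. For Post-weaning against Lactating, edgeR called 0, DESeq2 1 and quality weights 3. For Post-weaning against Pregnant, edgeR called 1, DESeq2 2, quality weights 4, the replicate block 0 and the fit to 6 libraries 4. Leaving out 1 library gave 0 to 6 for any stage, 0 to 4 for Pregnant against Virgin, 0 to 4 for Lactating against Virgin, 1 to 6 for Lactating against Pregnant, 0 to 5 for Post-weaning against Lactating and 0 to 4 for Post-weaning against Pregnant. In each the highest count came without Lactating 3, and the cause was not tested. RLE scaling, which moved the median of all genes by at most 0.05 on the log2 scale, TMM without admixture markers and both other filters kept each count within 1.5 times.

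Replicate numbers are not said to pair the samples. Same-numbered libraries of different stages had correlations of their deviations from -0.07 to 0.07 over 18 pairs. Such values cannot show whether these libraries shared a day or a batch. With the replicate block, Il1b (adjusted p = 0.0676) and Tnf (0.0960) lost the any-stage call and Osm (0.0559) that against Post-weaning.

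Signs of log2 fold changes that were not called reversed in 15 fits. Il1a, Lactating against Virgin, ran from -0.453 (without Lactating 1) to 0.7545 without 1 library and was -0.3734 by voom. For Pregnant against Virgin, Il1rn ran from -0.192 to 0.1296 (without Virgin 1) and Il6 from -0.0529 (without Pregnant 3) to 0.5239. For Post-weaning against Virgin, Il1b ran from -0.1277 to 0.0901 (positive without Virgin 1, at 0.0818, or Post-weaning 2), Il1rn from -0.1487 to 0.1619 (positive without Virgin 1 or, at 0.0152, Post-weaning 1), Tnf from -0.3581 to 0.0695 (positive without Virgin 3) and Osm from -0.1786 to 0.138 (positive without Post-weaning 1 or, at 0.1031, Virgin 2), with 0.0564 by quality weights. Il6, Post-weaning against Lactating, was 0.1548 by voom. Il1rn, Post-weaning against Pregnant, ran from -0.0165 to 0.1132, and was -0.0055 without Pregnant 2.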

Other observations

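Other ligands of the IL-1, TNF and gp130 families were scarce, in a list that also holds the inhibitor gene Il18bp. Of 24 genes, 7 were at 0 in all 12 libraries and 12 passed the filter on low counts. From Pregnant to Lactating 1 of the 12 rose and 1 fell, where 2.65% of all genes were called higher. The share of all genes called lower in that comparison is not given here. Il18bp, the soluble inhibitor of IL-18, gave 53.9, 29.0 and 33.6 CPM in Virgin libraries and 185, 309 and 251 CPM in Pregnant libraries. It gave 5.72, 17.5 and 0.439 CPM in Lactating and 47.6, 112 and 84.9 CPM in Post-weaning libraries. Every Pregnant library was above, and every Lactating library below, all others, and the fall from Pregnant to Lactating (log2 fold change -5.01 ± 0.91, edgeR adjusted p = 0.0104) was kept in 12 of 12 fits without 1 library. In mean level, Pregnant and Lactating libraries thus stood in the opposite order to that for Il1b. In Lactating 3, however, both Il18bp and Il1b (2722 CPM) lay below every Virgin library. How many genes run opposite to Il1b was not counted. Clcf1, a gp130 ligand, rose from 1.67, 4.70 and 3.52 CPM in Pregnant to 25.6, 41.7 and 21.9 CPM in Lactating libraries (log2 fold change 3.17 ± 0.58, adjusted p = 0.0105), and lost the call without Pregnant replicate 1 (adjusted p = 0.0527). Il18 itself ran from 16.6 to 133 CPM, its highest value in Lactating 3.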
